A study of Mus musculus with 20 samples.

Results

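*Krt7*, *Krt19*, *Epcam*, *Sox9*, *Spp1*, *Pkhd1*, *Cftr* and *Muc1* mark cholangiocytes, the epithelial cells that line bile ducts, and the ductular reaction of injured liver. These 8 genes were chosen by name as markers, with earlier results of these data known, from the 50559 genes listed, and their RNA was followed in 20 mouse livers. All mice were *Cideb* fl/fl and received an AAV at 6 weeks of age. The vector was AAV-TBG-GFP for WT livers, whereas AAV-TBG-Cre gave the KO livers. The TBG promoter is active in hepatocytes, so the KO removes *Cideb* from hepatocytes and was not directed at cholangiocytes. CIDEB is a lipid droplet protein of hepatocytes. Each vector was combined with Western diet (WD) or with CDA-HFD, a choline-deficient, amino acid-defined high-fat diet that brings on steatohepatitis and fibrosis, and each of the 4 groups held 5 livers. The labels give 3 months for either diet, whereas the paper describes a longer time on WD, so diet and feeding time cannot be told apart. The labels do not say how mice were housed or whether livers were processed together.

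In a ductular reaction, small cords of biliary cells expand at the edge of the portal tract, either from existing ducts or from hepatocytes that take on biliary features. Keratin 7 and keratin 19 are the filaments of this epithelium, EPCAM and MUC1 lie on its surface, and SOX9 is a transcription factor of ductal and progenitor-like cells. Osteopontin, the product of *Spp1*, is a secreted matrix protein that binds integrins and CD44 and is also made by macrophages. Fibrocystin, from *Pkhd1*, sits on the primary cilium, and CFTR is the chloride channel of ductal bile secretion. The reaction commonly accompanies fibrosis in fatty liver disease.

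Reads counted on genes ranged from 11697049 to 16827147 per liver, and between 50.3% and 57.0% of the reads tallied in a liver were not assigned to a gene. *Cideb* itself had 52 to 100 reads in WT livers against 0 to 5 in KO livers on WD, and 35 to 60 against 0 to 6 on CDA-HFD. Of its 1488 exonic bases, 1136 are shared with *Nop9* on the opposite strand. Values below are CPM, read counts scaled to library size and by TMM over the 20 livers, unless they are called differences or ratios. The hepatocyte list (*Alb*, *Apoa1*, *Ttr* and others) summed to at least 31828 CPM in each liver, and 6 pancreatic acinar genes summed to at most 0.670 CPM. KO liver 5 on CDA-HFD was higher than the other 4 KO livers on that diet in each of the 8 members. The counts of members called in comparisons that hold it are given with and without it. In whole liver, fewer cells of a type and less RNA per cell cannot be told apart.

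The promoters of the members are shown first because the genes rose together on CDA-HFD in WT livers (below), so that what their sequences share can be seen beside the values. RefSeq windows of 300 bases on GRCm38.p6, with 250 bases before the start of transcription and 50 after it, matched 6 of the 8 members by symbol. *Krt19* and *Sox9* had no entry. *Spp1* had a pair of windows. Motifs of 4 families of biliary transcription factors were searched on both strands, and they were picked after the promoters had been read: ACCGGT for GRHL, TGGGAA for RBPJ of the Notch pathway, GGAATG for TEAD of the YAP pathway and ATTGAT for ONECUT. Among the 7 windows of the members, the GRHL and TEAD motifs were found in 1 gene each, and the RBPJ and ONECUT motifs in none. Of all 32851 promoter windows, 2.33% held the GRHL motif, 25.6% the RBPJ motif, 14.7% the TEAD motif and 7.54% the ONECUT motif. A match is a run of letters and not a measured binding site. In the sequences that follow, each 5′ to 3′, capitals mark a matched motif.

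The promoter of *Epcam* (chr17:87635729-87636028, plus strand) holds the GRHL motif at 2 places, beginning 174 and 131 bases before the start. The promoter of *Muc1* (chr3:89228806-89229105, plus strand) holds the TEAD motif 132 bases before the start. The promoter of *Cftr* (chr6:18170437-18170736, plus strand) held none of the 4 motifs and is shown because *Cftr* changed most between the diets in WT livers. That of *Spp1* (chr5:104434861-104435160, plus strand), the most abundant member, held none either, nor did its other window or those of *Krt7* and *Pkhd1*.
*Epcam*: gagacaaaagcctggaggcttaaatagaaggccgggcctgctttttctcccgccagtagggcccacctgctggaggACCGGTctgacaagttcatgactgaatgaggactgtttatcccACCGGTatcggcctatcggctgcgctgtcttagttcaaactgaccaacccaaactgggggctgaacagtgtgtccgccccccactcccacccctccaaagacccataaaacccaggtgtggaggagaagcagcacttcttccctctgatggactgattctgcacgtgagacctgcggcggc
*Muc1*: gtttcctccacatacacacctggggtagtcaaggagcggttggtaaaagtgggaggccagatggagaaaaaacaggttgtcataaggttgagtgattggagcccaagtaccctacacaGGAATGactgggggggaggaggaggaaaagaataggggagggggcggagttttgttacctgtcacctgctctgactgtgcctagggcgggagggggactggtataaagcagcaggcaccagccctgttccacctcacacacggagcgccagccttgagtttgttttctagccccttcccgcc
*Cftr*: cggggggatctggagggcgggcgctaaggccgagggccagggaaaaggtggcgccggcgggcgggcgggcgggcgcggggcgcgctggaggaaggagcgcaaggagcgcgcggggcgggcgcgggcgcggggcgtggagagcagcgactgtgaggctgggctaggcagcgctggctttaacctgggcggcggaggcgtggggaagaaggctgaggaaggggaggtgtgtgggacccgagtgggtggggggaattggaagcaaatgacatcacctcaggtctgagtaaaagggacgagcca
*Spp1*: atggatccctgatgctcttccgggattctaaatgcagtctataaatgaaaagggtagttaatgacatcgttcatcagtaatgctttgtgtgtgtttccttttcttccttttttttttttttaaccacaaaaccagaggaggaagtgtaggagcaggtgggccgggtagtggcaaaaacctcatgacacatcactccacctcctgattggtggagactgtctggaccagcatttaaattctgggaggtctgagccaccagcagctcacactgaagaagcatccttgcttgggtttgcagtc

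To compare the members with each other, CPM was divided by the length of the longest principal transcript in GENCODE. *Spp1* was by far the most abundant member per kilobase, with 342 ± 98.9 CPM per kb (SD, n = 5) in WT livers on CDA-HFD. *Pkhd1* followed with 11.8 ± 2.02, *Epcam* with 8.36 ± 2.45, *Krt19* with 5.78 ± 1.86, *Sox9* with 5.30 ± 1.14, *Muc1* with 3.45 ± 1.43, *Krt7* with 1.72 ± 0.533 and *Cftr* with 1.33 ± 0.701 CPM per kb. Apart from *Spp1*, each gene overlapped its neighbour in this order. On WD the WT order was *Spp1* (50.4 ± 38.4 CPM per kb), *Pkhd1* (3.11 ± 0.672), *Sox9* (1.99 ± 0.234), *Krt19* (1.10 ± 0.350), *Epcam* (0.693 ± 0.365), *Muc1* (0.597 ± 0.277), *Krt7* (0.349 ± 0.0860) and *Cftr* (0.0826 ± 0.0525). By its mean, *Epcam* thus stood above *Krt19* and *Sox9* on CDA-HFD and below both on WD. On CDA-HFD its range overlapped both of theirs. On WD it ran from 0.222 to 1.07 CPM per kb, overlapping *Krt19* (0.815 to 1.71) and lying below *Sox9* (1.68 to 2.22). Of the members, *Krt7*, *Pkhd1* and *Cftr* share 77, 208 and 129 exonic bases with a gene on the opposite strand. *Spp1* shares 309 of its 1648 exonic bases with *Gm42793* on its own strand. Reads from shared bases may have been lost or may belong to the neighbour, since how they were counted is not known.

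CDA-HFD was compared with WD in WT livers to see how the markers respond to a fibrosing diet when hepatocytes keep *Cideb*. All 8 members were higher on CDA-HFD, between 2.66-fold (*Sox9*) and 16.3-fold (*Cftr*), and in none did a liver on WD reach a liver on CDA-HFD. Of the 16726 genes tested, 25.9% were called higher and 19.3% were higher without overlap. The median log2 fold change was 2.44 over the members and 0.00 over all genes. The exact two-sided permutation p was 0.00794 for each member, the smallest that 5 livers against 5 allow.

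Among the keratins, *Krt7* (chromosome 15, 101411043 to 101430313, plus strand, ENSMUSG00000023039.17) stood at 1.72, 1.89, 1.21, 1.09 and 1.24 CPM in WT livers 1 to 5 on WD and at 9.82, 4.57, 7.93, 5.09 and 7.83 on CDA-HFD. Its log2 fold change was 2.29 (SE 0.25, adjusted p = 4.18e-05 by edgeR). *Krt19* (chromosome 11, 100140810 to 100148665, minus strand, ENSMUSG00000020911.14) stood at 1.56, 1.55, 1.28, 1.59 and 2.70 CPM on WD and at 12.8, 6.54, 10.4, 5.70 and 10.1 on CDA-HFD, a log2 fold change of 2.37 (SE 0.27, adjusted p = 4.87e-05). WT livers 1, 3 and 5 were the highest on CDA-HFD for both keratins, and livers 2 and 4 the lowest.

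Of the surface proteins, *Epcam* (chromosome 17, 87635979 to 87651129, plus strand, ENSMUSG00000045394.9), a cell adhesion molecule of ductal and progenitor cells, stood at 2.19, 2.15, 0.453, 1.19 and 1.09 CPM on WD and at 21.04, 12.9, 18.2, 10.8 and 22.2 on CDA-HFD. Its log2 fold change of 3.59 (SE 0.34, adjusted p = 1.85e-05) amounts to 12.02-fold. *Muc1* (chromosome 3, 89229057 to 89233381, plus strand, ENSMUSG00000042784.9), a transmembrane mucin of apical membranes, went from 1.64, 2.23, 1.13, 0.594 and 1.09 CPM to 5.32, 6.54, 7.33, 6.17 and 13.3, a log2 fold change of 2.52 (SE 0.34, adjusted p = 0.000121). WT liver 5 on CDA-HFD stood well above the other 4 for *Muc1*, and without it the log2 fold change was 2.23.

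*Sox9* (chromosome 11, 112782224 to 112787760, plus strand, ENSMUSG00000000567.5) changed least. It stood at 8.76, 9.19, 6.95, 7.43 and 8.75 CPM on WD and at 21.04, 21.2, 25.5, 14.9 and 27.0 on CDA-HFD, with a log2 fold change of 1.41 (SE 0.16, adjusted p = 4.44e-05). Its livers on WD lay close together and well away from those on CDA-HFD.

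*Spp1* (chromosome 5, 104435118 to 104441050, plus strand, ENSMUSG00000029304.14) stood at 149, 127, 23.7, 30.5 and 49.7 CPM on WD and at 515, 430, 595, 322 and 710 on CDA-HFD, with a log2 fold change of 2.75 (SE 0.49, adjusted p = 0.000708). WT livers 1 and 2 on WD were high for *Spp1*, and in them the lipid-associated macrophage list (*Trem2*, *Gpnmb*, *Cd9*, *Fabp5*, *Lpl*, *Mmp12*, *Itgax*, *Cd63*) summed to 328 and 222 CPM against 64.8 to 117 CPM in the other 3. The part of macrophages in the *Spp1* level was not tested.

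*Pkhd1* (chromosome 1, 20057779 to 20618064, minus strand, ENSMUSG00000043760.16) stood at 50.4, 48.3, 32.9, 38.1 and 31.6 CPM on WD and at 143, 138, 180, 123 and 181 on CDA-HFD, with a log2 fold change of 1.92 (SE 0.16, adjusted p = 1.02e-05). *Cftr* (chromosome 6, 18170687 to 18322768, plus strand, ENSMUSG00000041301.15) was nearly silent on WD, with 1 to 10 reads in a liver and 0.782, 0.858, 0.0756, 0.594 and 0.292 CPM. On CDA-HFD it had 76 to 324 reads and 5.89, 5.42, 10.2, 5.09 and 15.4 CPM, a log2 fold change of 4.03 (SE 0.48, adjusted p = 6.13e-05). Of the members, the bile secretion channel showed the largest fold change from the lowest level.

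**Figure D1:**
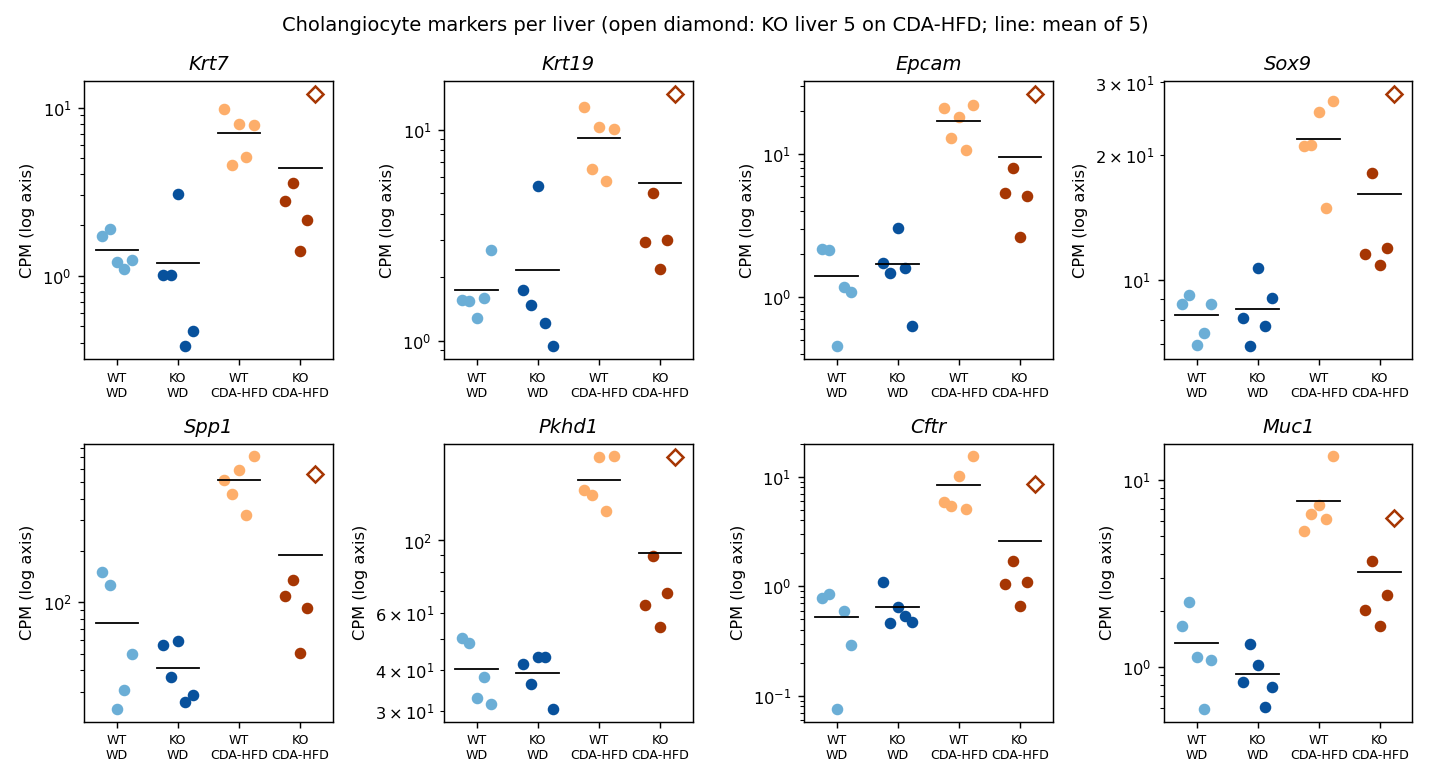
CPM of each member (log axis) in the 5 livers of each group, with the mean as a line and KO liver 5 on CDA-HFD as an open diamond. All WT livers on CDA-HFD lie above all WT livers on WD in each panel, and KO liver 5 is the highest KO liver on CDA-HFD for 8 of 8 members.

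The rest of the biliary program was described with 68 genes in 8 lists ordered by role, of which 66 were tested in WT livers. On CDA-HFD 42 were higher and 7 lower than on WD, where 25.9% of all genes were higher and 25.2% lower. Among keratins, junction and surface proteins, 7 of 11 tested were higher and none lower. *Cldn4*, a tight junction claudin, had a log2 fold change of 4.22, *Tspan8*, a tetraspanin, of 3.97, and *Prom1*, the stem and ductal cell antigen CD133, of 2.83 (SE 0.25, adjusted p = 1.26e-05). Of these, *Cldn4* and *Tspan8* were named after their values were seen. Among biliary transcription factors, 6 of 8 were higher, led by the epithelial ETS factor *Ehf* with 3.73 (SE 0.34, adjusted p = 1.55e-05) and *Klf5* and *Grhl2* with 2.87 and 2.80. *Onecut1*, which hepatocytes express as well, fell by 1.53 on the log2 scale (SE 0.25, adjusted p = 0.000442).

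Genes of ductal transport were split. *Slc5a1*, a sodium-glucose cotransporter of the ductal lumen, rose by 2.71 on the log2 scale, *Ano1*, a calcium-activated chloride channel, by 2.03 and *Sctr*, the secretin receptor, by 1.83, while the other 4 did not pass. Of 9 genes of the cilium and of polycystic liver disease, 6 were higher, most of all *Bicc1* with 2.97 (SE 0.30), and *Sec63* was lower. In the Notch list 3 of 8 were higher and 2 lower, where 25.9% of all genes were higher and 25.2% lower. *Jag2* (1.14), *Rbpj* (0.42) and *Notch2* (0.35) were higher. The receptor *Notch1* (-0.59, SE 0.08, adjusted p = 0.000181 by edgeR) and the target *Hes1* (-0.65) were lower. In the YAP and TAZ list 3 of 7 were higher and 2 lower. *Ankrd1* (3.24), *Ccn2* (1.27) and *Tead1* (0.25) were higher, and *Yap1* (-0.28) and *Amotl2* (-0.40) lower. *Ccn1* (0.16) and *Wwtr1* (-0.16) did not pass.

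Signals and matrix of the ductular niche rose in 8 of 9 tested genes, with *Itgb6*, an integrin chain of activated biliary epithelium, at 3.40 and *Tgfb2* at 2.04. Of 7 receptors for osteopontin, 6 were higher, among them *Cd44* with 1.29 and *Itgav* with 0.74 (SE 0.10), and *Itgb3* was lower. Other cell types moved on the same diet. All 8 genes of the lipid-associated macrophage list and 8 of 9 of the stellate cell list were higher, as were the 5 tested genes of the mesothelial list, whose cells also make keratins 7 and 19, and 6 of 8 of the hepatocyte list were lower. Their part in the members' change was not tested.

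In KO livers the same diet comparison passed for fewer members. *Epcam*, *Sox9*, *Spp1*, *Pkhd1* and *Muc1* were higher on CDA-HFD, 5 of 8, where 9.19% of the 16387 genes tested were called higher. The median log2 fold change was 1.87 over the members. *Sox9*, *Pkhd1* and *Muc1* did not overlap between the diets, which held for 8.09% of genes in this direction. The log2 fold changes of the 5 were 2.51 (SE 0.62, adjusted p = 0.0206) for *Epcam*, 0.93 (0.27, 0.0368) for *Sox9*, 2.21 (0.59, 0.0276) for *Spp1*, 1.22 (0.30, 0.0198) for *Pkhd1* and 1.81 (0.39, 0.0122) for *Muc1*, by edgeR. *Krt7* (1.93, adjusted p = 0.0726), *Krt19* (1.41, 0.135) and *Cftr* (2.05, 0.0697) did not pass. With 1 library left out, between 1568 (without KO liver 2 on WD) and 2881 of all genes were called in either direction, against 2792. The count of members was 1 without KO liver 2 on WD, 3 without KO liver 4 or KO liver 5 on WD, and 7 without KO liver 3 on WD. It was 5 without KO liver 5 on CDA-HFD, where 9.03% of genes were higher. In that last fit the fold changes were smaller, with a median of 0.95.

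On WD, KO livers stood at 1.01, 1.01, 3.07, 0.379 and 0.469 CPM of *Krt7* and at 1.75, 1.48, 5.40, 1.21 and 0.938 CPM of *Krt19* in livers 1 to 5. KO liver 3 on WD was the highest for both keratins. It was also the highest for *Epcam*, with 3.07 CPM against 0.626 to 1.75, for *Sox9*, with 10.7 against 6.91 to 9.07, and for *Spp1*, with 59.4 against 25.9 to 55.8. For *Pkhd1*, *Cftr* and *Muc1* another liver was higher. Of the 20 libraries, that of KO liver 3 on WD had the highest share of reads aligned to several places (28.7%). Its share of reads not assigned to a gene (57.0%) was also the highest. The part of this in its values was not tested.

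KO was compared with WT on WD to ask whether loss of *Cideb* in hepatocytes shifts the ductal markers without the fibrosing diet. *Cftr* did not pass the filter on low counts in this comparison. None of the other 7 members passed edgeR's test, none had an unadjusted p under 0.05, and DESeq2 called none either. Of the 15848 genes tested, 0.0757% were called and 10.7% had an unadjusted p under 0.05. The log2 fold changes were -0.88 (SE 0.48, adjusted p = 0.537) for *Spp1*, -0.56 (SE 0.34) for *Muc1*, -0.31 (SE 0.47) for *Krt7*, 0.28 (SE 0.44) for *Krt19*, 0.26 (SE 0.44) for *Epcam*, 0.05 (SE 0.14) for *Sox9* and -0.03 (SE 0.15) for *Pkhd1*. The groups overlapped for all 8. *Krt19* and *Epcam* turned to -0.39 and -0.06 without KO liver 3.

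*Spp1* in KO livers on WD ran from 25.9 to 59.4 CPM, so WT livers 1 and 2, with 149 and 127 CPM, were the only livers on WD above that range. Of the 57 role list genes tested on WD, none passed by edgeR, 9 had an unadjusted p under 0.05 and DESeq2 called 1. The gene with the smallest p in each of the 8 lists is given as its log2 fold change: *Tead1* (-0.44, adjusted p = 0.239), *Heyl* (0.66, 0.248), *Krt8* (-0.62, 0.292), *Cd44* (-0.78, 0.319), *Slc4a2* (0.28, 0.332), *Onecut2* (0.22, 0.552), *Pkd1* (0.14, 0.562) and *Tnfrsf12a* (-0.66, 0.643). Reads of *Krt8* can be lost to its near-identical pseudogenes.

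**Figure D2:**
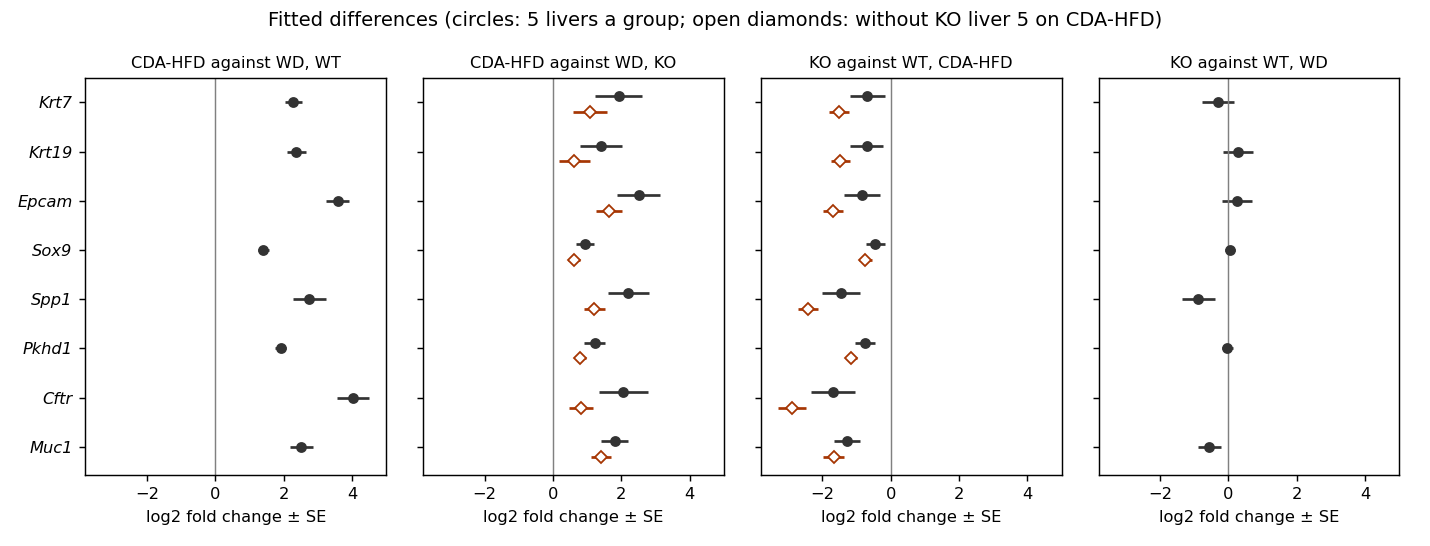
Log2 fold change with its standard error for each member in 4 comparisons, with 5 livers a group (circles) and without KO liver 5 on CDA-HFD (open diamonds); *Cftr* was not tested on WD. The WT diet differences all lie above 1. The differences between KO and WT on CDA-HFD move away from 0 and their errors shrink when KO liver 5 is left out. That change follows from the choice, since KO liver 5 was left out for its high values of these members.

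On CDA-HFD, KO was compared with WT to ask whether the markers stay lower when hepatocytes lack *Cideb*. With all 5 KO livers, *Muc1* was the single member called, at -1.28 on the log2 scale (SE 0.37, adjusted p = 0.0420 by edgeR), where 7.29% of the 17204 genes tested were called lower. All 8 log2 fold changes were below 0, with a median of -0.80 against 0.00 over all genes. *Cftr* stood at -1.68 (SE 0.64, adjusted p = 0.0917), *Spp1* at -1.46 (0.56, 0.0950), *Epcam* at -0.84 (0.52, 0.263), *Pkhd1* at -0.75 (0.29, 0.0979), *Krt19* at -0.70 (0.48, 0.315), *Krt7* at -0.68 (0.50, 0.351) and *Sox9* at -0.45 (0.27, 0.250). The exact two-sided permutation p was 0.0238 for *Muc1*, 0.0317 for *Spp1* and *Cftr* and 0.0556 for *Pkhd1*. The call of *Muc1* was lost without any 1 of WT livers 1, 2, 3 and 5 or KO livers 1 to 4.

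KO liver 5 stood apart from the other KO livers in most members. Of its reads, 55.7% were not assigned to a gene, against 50.6% to 52.1% in KO livers 1 to 4. In WT livers on CDA-HFD this share was 52.6% to 55.8%. Its share of reads that fell on no gene feature (28.8%) was the highest of the 20 libraries. The part of this in its values was not tested. KO livers 1 to 4 had 109, 134, 50.1 and 91.9 CPM of *Spp1*, and KO liver 5 had 559 CPM, against 322 to 710 in WT livers. For *Cftr* the same livers had 1.04, 1.71, 0.664 and 1.10 CPM and KO liver 5 had 8.56, against 5.09 to 15.4 in WT livers. For *Muc1* they had 2.02, 3.67, 1.66 and 2.42 CPM and KO liver 5 had 6.22, against 5.32 to 13.3. KO liver 5 thus lay among the WT livers for these genes, while the other 4 lay below all of them. Of *Cideb*, KO liver 5 had 1 read, against 0 to 6 in KO livers 1 to 4 and 35 to 60 in WT livers.

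*Pkhd1* stood at 63.5, 89.3, 54.5 and 69.1 CPM in KO livers 1 to 4 and at 180 in KO liver 5, against 123 to 181 in WT livers. *Epcam* stood at 5.36, 8.04, 2.66 and 5.07 CPM, with 26.5 in KO liver 5 and 10.8 to 22.2 in WT livers. *Krt19* stood at 2.92, 4.998, 2.19 and 3.01 CPM, with 14.8 in KO liver 5 and 5.70 to 12.8 in WT livers. For *Epcam* and both keratins, KO liver 5 exceeded each WT liver.

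*Krt7* ran from 1.39 to 3.54 CPM in KO livers 1 to 4 and stood at 12.1 in KO liver 5, against 4.57 to 9.82 in WT livers. *Sox9* stood at 11.5, 18.2, 10.9 and 11.97 CPM, with 28.2 in KO liver 5 and 14.9 to 27.0 in WT livers. In *Sox9* alone KO liver 2 reached into the WT range. KO liver 5 exceeded the mean of the other 4 by 2.15 times for *Sox9* to 7.58 times for *Cftr*, and KO liver 3 was the lowest KO liver for 8 of 8 members.

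KO liver 5 was singled out after its high values of these same members were seen, so the fits without it describe the other livers and are no independent test. Without it, all 8 members passed as lower in KO than in WT livers, where 21.8% of the 17411 genes tested were called lower. The log2 fold changes were -2.90 (SE 0.41) for *Cftr*, -2.42 (SE 0.30) for *Spp1*, -1.69 (SE 0.30) for *Epcam* and -1.67 (SE 0.31) for *Muc1*, by edgeR. *Krt7* (-1.52), *Krt19* (-1.47), *Pkhd1* (-1.15) and *Sox9* (-0.74) followed. *Cftr* was thus 7.45-fold and *Spp1* 5.36-fold lower in the 4 KO livers than in the 5 WT livers. KO livers 1 to 4 still stood above each KO liver on WD for *Sox9*, *Pkhd1* and *Muc1*, and for the other 5 they overlapped them.

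Whether KO and WT differed by unlike amounts on CDA-HFD and on WD was tested on all 20 livers. No member passed (edgeR, adjusted p from 0.335 to 0.852), none had an unadjusted p under 0.05 and DESeq2 called none, where 0.556% of the 17804 genes were called and 15.4% had an unadjusted p under 0.05. The fitted differences were all below 0, from -0.37 for *Krt7* to -1.98 (SE 0.97) for *Cftr*. In the fit without KO liver 5 on CDA-HFD, which was left out for its high values of these members, 5 of 8 passed as lower, where 5.71% of genes did: *Cftr* (-3.20), *Epcam* (-1.94), *Krt19* (-1.74), *Pkhd1* (-1.11) and *Sox9* (-0.79). *Krt7*, *Spp1* and *Muc1* did not pass there either.

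Of the 66 role list genes tested between KO and WT on CDA-HFD, 4 were higher and 11 lower, where 8.19% of all genes were called higher and 7.29% lower. Niche signals were lower in 4 of 9, *Tnfrsf12a* (-0.94), its ligand *Tnfsf12* (-0.45), *Tgfb1* (-0.90, SE 0.19, adjusted p = 0.0167) and *Tgfb2* (-1.26). *Tnfrsf12a* encodes the receptor of TWEAK, a cytokine that drives growth of ductular cells. *Cd44* (-1.37, SE 0.30, adjusted p = 0.0178) and *Itgav* (-0.55), which encode receptors for osteopontin, were lower as well. *Jag1*, the Notch ligand of the portal tract, was lower (-0.56, SE 0.14, adjusted p = 0.0265), and *Notch1* was higher (0.36, SE 0.09, adjusted p = 0.0223). In the YAP and TAZ list *Amotl2* (0.48, SE 0.09) and *Yap1* (0.26) were higher, and *Ccn2* (-1.24) and *Tead1* (-0.49) lower. *Onecut1* was higher (1.61, SE 0.34, adjusted p = 0.0167), at 42.2 against 13.8 CPM on average, *Cdh1* (-0.41) and *Kif3a* (-0.60) were lower, and in the transport list no gene passed, *Aqp1* coming nearest (0.27, adjusted p = 0.0630).

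Without KO liver 5, 8 of the 66 were higher and 40 lower, where 19.6% of all genes were called higher and 21.8% lower. All 9 niche signals, 8 of 11 surface and junction genes, 6 of 7 osteopontin receptors and 5 of 8 transcription factors were then lower, with *Ehf* at -2.19, *Itgb6* at -2.52, *Cldn4* at -2.43 and *Bicc1* at -1.77. Within the KO livers, CDA-HFD against WD called 16 of 60 role list genes higher and 1 lower, where 9.19% of all genes were higher and 7.85% lower, with *Cdh1* (2.66, SE 0.41, adjusted p = 0.00193), *Grhl2* (2.05), *Ano1* (1.57), *Pkd2* (0.60), *Notch2* (0.44) and *Ccn1* (0.69) among them and *Itgb3* (-1.02) lower. Without KO liver 5, 15 were higher and 2 lower, where 9.03% of all genes were higher and 8.37% lower, with *Grhl2* at 1.53 and *Ano1* at 0.98.

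**Figure D3:**
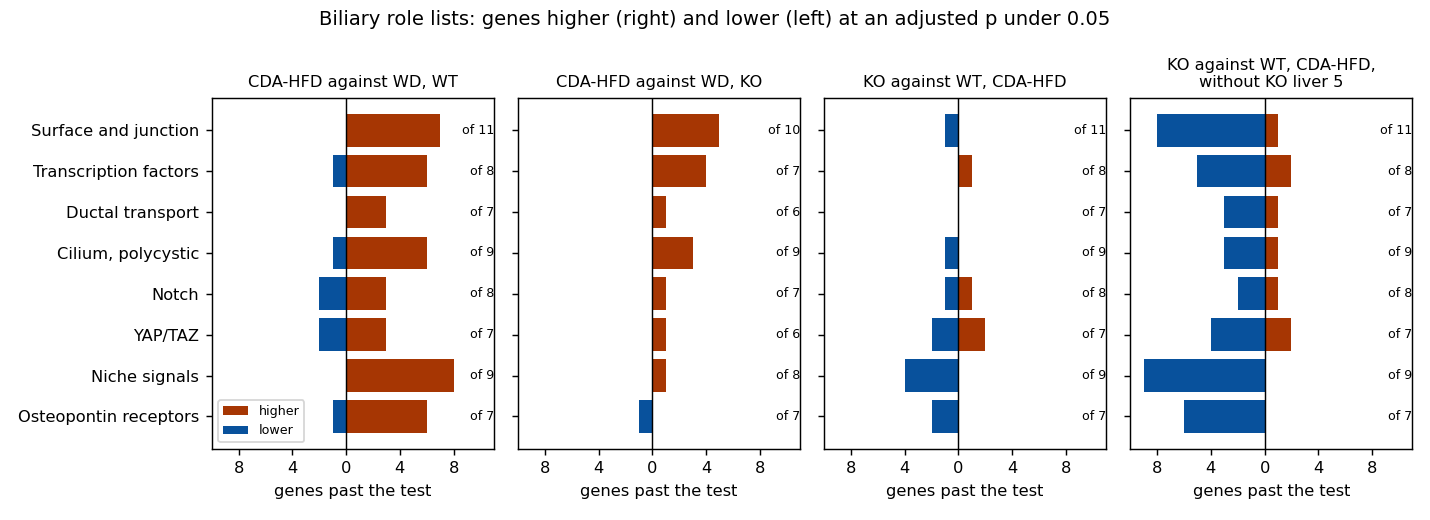
Number of genes higher (right) and lower (left) at an adjusted p under 0.05 by edgeR in each of the 8 role lists, with the number tested at the right edge. In WT livers 42 of 66 genes rose on CDA-HFD, and between KO and WT on CDA-HFD the lower genes number 11 with all livers and 40 without KO liver 5.

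Other cell types moved beside the members on CDA-HFD. The lipid-associated macrophage list summed to 153 to 233 CPM in KO livers 1 to 4, to 1392 in KO liver 5 and to 1255 to 2857 in WT livers, and none of its 8 genes was at 0 in a whole group. The macrophage list summed to 517 to 689, 1377 and 1192 to 2171 CPM in the same order, and the stellate cell list to 617 to 874, 3062 and 1644 to 3054 CPM. In the macrophage sum the largest gene was *Lyz2*, at 843 CPM on average in WT livers. The mesothelial list summed to 8.57 to 13.4, 50.6 and 19.3 to 75.3 CPM. The endothelial list summed to 691 to 800 CPM in KO livers 1 to 4, to 426 in KO liver 5 and to 480 to 581 in WT livers. The hepatocyte list summed to 68855 to 100651 CPM in KO livers 1 to 4, to 34907 in KO liver 5 and to 31828 to 68008 in WT livers. Most of that sum was *Alb*, at 37066 CPM on average in WT livers. *Alb* did not pass between KO and WT (adjusted p = 0.293 by edgeR, 0.0600 without KO liver 5). Of the 8 hepatocyte genes, 1 was higher in KO livers with all livers and 4 without KO liver 5. With all livers, 5 of 8 lipid-associated macrophage genes and 3 of 9 stellate cell genes were lower in KO livers, and without KO liver 5, 8 of 8 and 8 of 9 were. Of the 8 macrophage genes, 3 were lower with all livers. Without KO liver 5, 5 of them were lower, and *Marco* (1.51) and *Clec4f* (0.59) were higher. Of all genes, 8.19% were called higher and 7.29% lower with all livers, and 19.6% and 21.8% without KO liver 5. Apart from the endothelial list, KO liver 5 lay within or just above the WT range in these lists. Among the members it lay within the WT range for 4 of 8. For *Krt7*, *Krt19*, *Epcam* and *Sox9* it lay above each WT liver. The part of these cells in the members' levels was not tested.

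**Figure D4:**
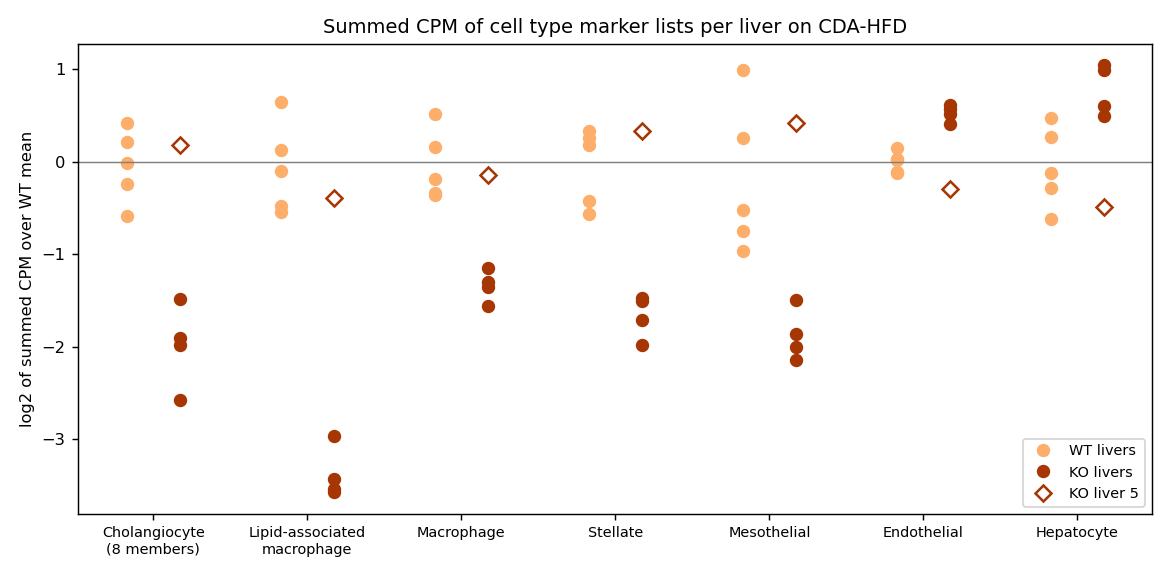
Summed CPM of each marker list in each liver on CDA-HFD, as log2 over the mean of the 5 WT livers, with KO liver 5 as an open diamond. KO livers 1 to 4 lie below the WT livers for the cholangiocyte, macrophage, stellate and mesothelial lists, and KO liver 5 lies within or just above the range of the WT livers for these lists. Most of the cholangiocyte sum is *Spp1*, at 515 CPM on average in WT livers, where the list summed to 493 to 987 CPM. For the endothelial list, KO livers 1 to 4 lie above the WT livers and KO liver 5 below them.

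A ratio of members within a liver shows whether they moved by the same amount. On CDA-HFD the log2 ratio of *Spp1* to *Krt19* was 5.15, 4.71, 4.43, 4.87 and 5.22 in KO livers 1 to 5 and 5.31, 6.01, 5.83, 5.79 and 6.12 in WT livers, without overlap. The difference of -0.94 in the means had an exact permutation p of 0.00794, or 0.0741 adjusted over the 28 ratio tests, so it did not pass the correction. *Cftr* over *Krt19* differed by -1.11 (exact permutation p = 0.0159, adjusted 0.0741), with -0.78 in KO liver 5, -1.53 to -1.34 in KO livers 1 to 4 and -1.10 to 0.60 in WT livers. KO liver 5, whose *Krt19* exceeded that of each WT liver, had a lower *Spp1* to *Krt19* ratio than each of them.

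In WT livers the log2 ratio to *Krt19* differed between CDA-HFD and WD by 1.29 for *Epcam* (exact permutation p = 0.00794, adjusted 0.0741) and by -0.90 for *Sox9* (exact permutation p = 0.0159, adjusted 0.0741), and neither passed the correction. For *Muc1* it differed by 0.16 (exact permutation p = 0.730). *Krt7* over *Krt19* differed by -0.03 between KO and WT on CDA-HFD (exact permutation p = 0.754). Without KO liver 5, the ratio to *Krt19* differed for *Spp1* by -1.02, for *Cftr* by -1.24 and for *Sox9* by 0.70 (exact permutation p = 0.0159 for each, 0.0635 adjusted over 28 tests), so none passed the correction.

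**Figure D5:**
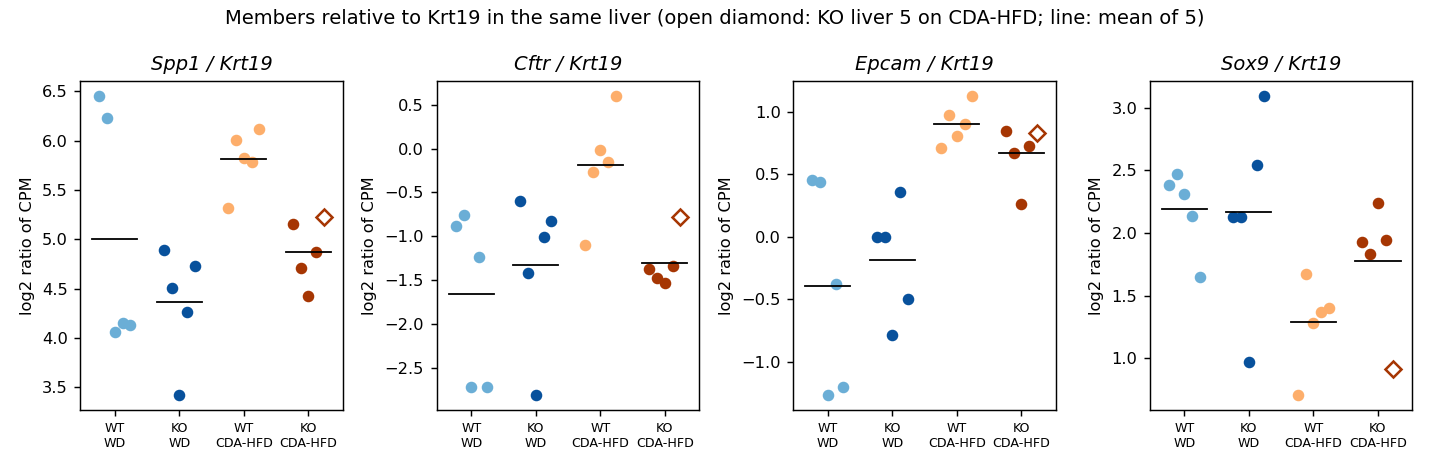
Log2 ratio of CPM of 4 members to *Krt19* in the same liver, with the mean of each group as a line and KO liver 5 on CDA-HFD as an open diamond. For *Spp1* all 5 KO livers on CDA-HFD, at 4.43 to 5.22, lie below the 5 WT livers, at 5.31 to 6.12.

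With the group means removed, the log2 CPM of any 2 members correlated over the 20 livers with r from 0.508 to 0.912 (28 pairs, median 0.787). Without KO liver 5 on CDA-HFD, r ran from 0.260 (*Krt19* and *Muc1*) to 0.853 (*Krt7* and *Krt19*), with a median of 0.619. These values are descriptions, since members of a liver share its library and its cell composition. The genes most like *Krt19* were *Cldn7* (r = 0.942), a claudin of tight junctions, *Bcam* (0.919) and *Ddah2* (0.910), and those most like *Epcam* were *Tspan8* (0.959), *Cdc25b* (0.946) and *Gm830* (0.944). *Sox9* was most like *B4galt2* (0.904), *Esrp1* (0.898), an RNA splicing factor of epithelial cells, and *Cd24a* (0.896). *Spp1* was most like *B4galt6* (0.958), *Rragd* (0.953) and *Miga1* (0.947). Of these 12 genes, only *Cldn7*, *Tspan8* and *Cd24a* are in the role lists. Without KO liver 5, each of these 12 genes stayed at r of 0.808 or more, and *Cdc25b* and *Rragd* ranked first of 17796 genes for *Epcam* and *Spp1*.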

How the data were processed

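RNA-seq was performed on 20 livers, 5 per group, and groups were taken from the labels. The authors deposited whole-number read counts per gene symbol, with no normalization. The submitters' processing notes name mm10, and the aligner and counting program are not given in the sources used here. The paper describes single-end reads and a Nugen Ovation library whereas a directional NEBNext kit stands in the labels, and whether counting used strand is not known. Rows tallying unassigned reads (50.3% to 57.0% of a liver's reads) were left out.

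Counts were fitted in R 4.3.3 with edgeR 4.0.16: filterByExpr, TMM, quasi-likelihood F test, and Benjamini-Hochberg adjustment over all genes tested at 0.05. Each pair of groups was fitted on its 10 livers and the interaction on 20. DESeq2 1.42.0 was an alternative, and scripts were tested on simulated data. For single members the CPM of livers was permuted exactly and two-sidedly (252 splits). For ratios and correlations, CPM was taken to log2 after adding a prior count of 2. Replicates are separate libraries, and the labels do not say that each is from a separate mouse, so p-values measure the spread between these libraries. Within groups, the squared deviation of counts between any pair of libraries averaged 6.24 to 110 times the sampling variance over genes (40 pairs). The highest value was between KO livers 4 and 5 on CDA-HFD.

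The members and lists were chosen with earlier results of these data known. Named genes were the 8 members, the gene with the smallest p in each role list and comparison, and the 3 genes most correlated with *Krt19*, *Epcam*, *Sox9* and *Spp1*. Some genes that this rule named are not reported here. Further genes that passed in a list, and the cell type genes, were named after their values were seen. Coordinates and lengths come from GENCODE M21 (GRCm38), the assembly of mm10, and promoters from RefSeq. Figures used Python 3.11.15 and matplotlib 3.10.9.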

Additional observations from a re-analysis of the deposited data

Results flagged for a closer look

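In groups of 5 livers, a liver was marked where its gap to the nearest other exceeded the share of the group's range that is Dixon's 95% critical value, which chance does in about 1 in 20 groups. Of 36 groups (8 members and *Cideb* in 4 groups each), 10 were marked, against 1.80 by chance if the genes moved independently, which they did not. KO liver 5 on CDA-HFD was marked for 6 members: *Krt7* (0.799 of the range), *Krt19* (0.778), *Epcam* (0.775), *Spp1* (0.835), *Pkhd1* (0.722) and *Cftr* (0.868). KO liver 3 on WD was marked for *Krt7* (0.766, 3.07 CPM against 0.379 to 1.01) and *Krt19* (0.819, 5.40 CPM against 0.938 to 1.75). WT liver 5 on WD was marked for *Krt19* (0.787, 2.70 CPM against 1.28 to 1.59), and WT liver 5 on CDA-HFD for *Muc1* (0.750, 13.3 CPM against 5.32 to 7.33).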

How the results depend on the processing

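In WT livers all 8 members stayed higher on CDA-HFD in each alternative but 1: a minimum of 10 reads in every library left 5 tested, and 5 were higher. In KO livers, 5 were higher on CDA-HFD, against 3 of 4 tested with that minimum, 8 with all 20 livers in one fit and 1 with a replicate block, and 1 to 7 with a library left out. Lower members between KO and WT on CDA-HFD numbered 1, against 0 with library size only, 3 with DESeq2, 3 with all 20 livers, 4 with a replicate block, and 0 to 8 with a library left out. For the interaction the count of 0 became 0 to 5 with a library left out. The replicate number marks no shared animal, and same-numbered livers correlated between -0.367 and 0.349 in their deviations, so the block stands for a number only; it moved all genes called from 12 to 2 on WD and from 99 to 8 for the interaction. With a library left out, signs turned on WD for *Krt19* (-0.39 to 0.50), *Epcam* (-0.0621 to 0.48) and *Sox9* (-0.0530 to 0.12), lowest without KO liver 3, and for *Pkhd1* (-0.11 to 0.0634, highest without WT liver 1), and in the interaction for *Krt7* (-1.21 to 0.33, highest without KO liver 3 on WD). Genes called between KO and WT on WD numbered 12, against 164 with DESeq2, 38 unfiltered, 26 with all livers and 1 to 33 with a library left out. On CDA-HFD they numbered 2664, against 1709 with library size only, 4144 with DESeq2, 4170 with all livers and 2459 with the block. With a library left out they numbered 709 to 7201. The role list genes numbered 15, against 7 with library size only and 4 to 48 with a library left out. In KO livers 2792 genes were called between diets, against 4476 with all livers, 2044 with the block and 1568 to 2881 with a library left out. Role list genes numbered 17, against 27 with all livers, 9 with the block and 9 to 21 with a library left out. For the interaction 99 became 44 with library size only, 434 with DESeq2, 52 unfiltered and 35 to 2138, and the role list genes 0 became 2 with DESeq2 and 0 to 17. Scaling by library size only put the median of all genes at 0.42 (WT diet), 0.25 (KO diet), -0.19 (KO on CDA-HFD) and -0.15 (interaction) on the log2 scale, against 0.02 at most with TMM. It moved the share of calls that were higher from 50.7% to 85.3%, 53.9% to 85.9%, 52.9% to 30.3% and 59.6% to 40.9%, and no member changed sign. The cause of these changes was not tested. Members with 1 to 58 reads a liver on WD (*Krt7*, *Krt19*, *Epcam*, *Cftr*, *Muc1*) are limited by depth there.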
